A study of Homo sapiens with 8 samples.

Results

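Cytosolic nucleic acid sensing was followed through 10 listed genes, namely the RNA sensors DDX58 and IFIH1 with their adaptor MAVS, the DNA-binding sensors IFI16 and AIM2, the adaptor TMEM173, the kinase TBK1, the transcription factors IRF3 and IRF7, and the nuclease TREX1. All 10 were found by symbol among the 23393 genes of the count table, and 9 passed the filter on low counts, TREX1 being the exception. RNA was sequenced from MDA-MB-231 cells, an established human breast cancer line, and from their ρ0 derivative, which had been depleted of mitochondrial DNA and is labelled as 1 clone. Each line was kept in full medium (control) or arginine-starved for 48 h, with 2 libraries in each of the 4 groups. The labels give the starvation as arginine deiminase, an enzyme that breaks down arginine, at 0.3 µg/mL in full medium, whereas the study's methods describe medium without arginine. All cells were grown in high-glucose DMEM with serum and antibiotics, and per the methods the ρ0 cells also received pyruvate, uridine and ethidium bromide, so that line, clone and culture additions cannot be told apart. Nothing states that the libraries of a group came from separate cultures, so p-values measure the spread between libraries, which may be technical. That spread was estimated for each gene over all 4 groups together. A pair of libraries that lay far apart therefore also widened the SE of comparisons it was not part of.

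Cells recognise nucleic acids that appear where they should not be. DDX58 (RIG-I) and IFIH1 (MDA5) are helicases that bind foreign-looking double-stranded RNA and signal through MAVS, a protein of the outer mitochondrial membrane. DNA in the cytosol is read by cGAS (MB21D1), whose cyclic dinucleotide product activates TMEM173 (STING) on the endoplasmic reticulum, and both routes meet at TBK1, which phosphorylates IRF3 and IRF7 so that interferon genes are transcribed. IFI16 and AIM2 are DNA-binding proteins of 1 family, AIM2 assembles an inflammasome, and TREX1 degrades cytosolic DNA. DDX58, IFIH1, IFI16, AIM2 and IRF7 are known to be interferon-inducible themselves.

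The libraries held between 25259503 and 31022155 counts. MDA-MB-231 markers such as VIM and CD44 were abundant throughout, while CDH1 and EPCAM, which are low in this line, stood at 0 to 15 counts in the parental libraries and at 104 to 697 counts in the ρ0 libraries. Of the other markers listed as low, GATA3 was also higher in ρ0 cells (250 to 579 against 121 to 157 counts). ERBB3 went the other way in full medium, at 770 and 668 counts in parental control and 110 and 128 counts in ρ0 control libraries. ESR1 and PGR had at most 6 counts in any library. Leukocyte markers other than CD68 summed to 0.594 to 10.2 CPM (counts relative to the total of the library), and the lymphocyte markers CD3E and MS4A1 were at 0 in all 8 libraries. CD68, a lysosomal protein that tumour cells also express, was at 51.3 to 122 CPM. None of the 13 protein-coding genes of mitochondrial DNA was in the table, so the depletion itself could not be checked. The replicate libraries of 3 groups were close, with a biological coefficient of variation (the spread beyond counting noise) of 1.84% to 5.16%, but that of the ρ0 control pair was 25%, and several of the sensing genes were among those that differed. In bulk RNA, a lower level in each cell and fewer cells with the transcript cannot be told apart.

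Levels are given as CPM after TMM scaling, and as CPM per kb of the longest coding transcript where genes are compared with each other. In parental control cells, IFI16 was the most abundant member at 90.4 CPM per kb, followed by IRF3 at 31, DDX58 at 25.8, TMEM173 at 22.3, MAVS at 21.0 and TBK1 at 18.2 CPM per kb. AIM2 at 10.2, IRF7 at 6.10 and IFIH1 at 1.78 CPM per kb followed, and TREX1 was at 0.0864 CPM per kb. After starvation of the parental line IFI16, IRF3 and TBK1 led the order, whereas TMEM173, AIM2 and DDX58 lay between 2.87 and 3.44 CPM per kb and IFIH1 was last at 0.0797 CPM per kb. In starved ρ0 cells IFI16, IRF3, TMEM173, DDX58 and IFIH1 stood at 73.4, 65.1, 39.1, 28.0 and 21.8 CPM per kb. The transcript lengths came from an annotation other than the authors', so close neighbours in these orders were not told apart.

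**Figure D1:**
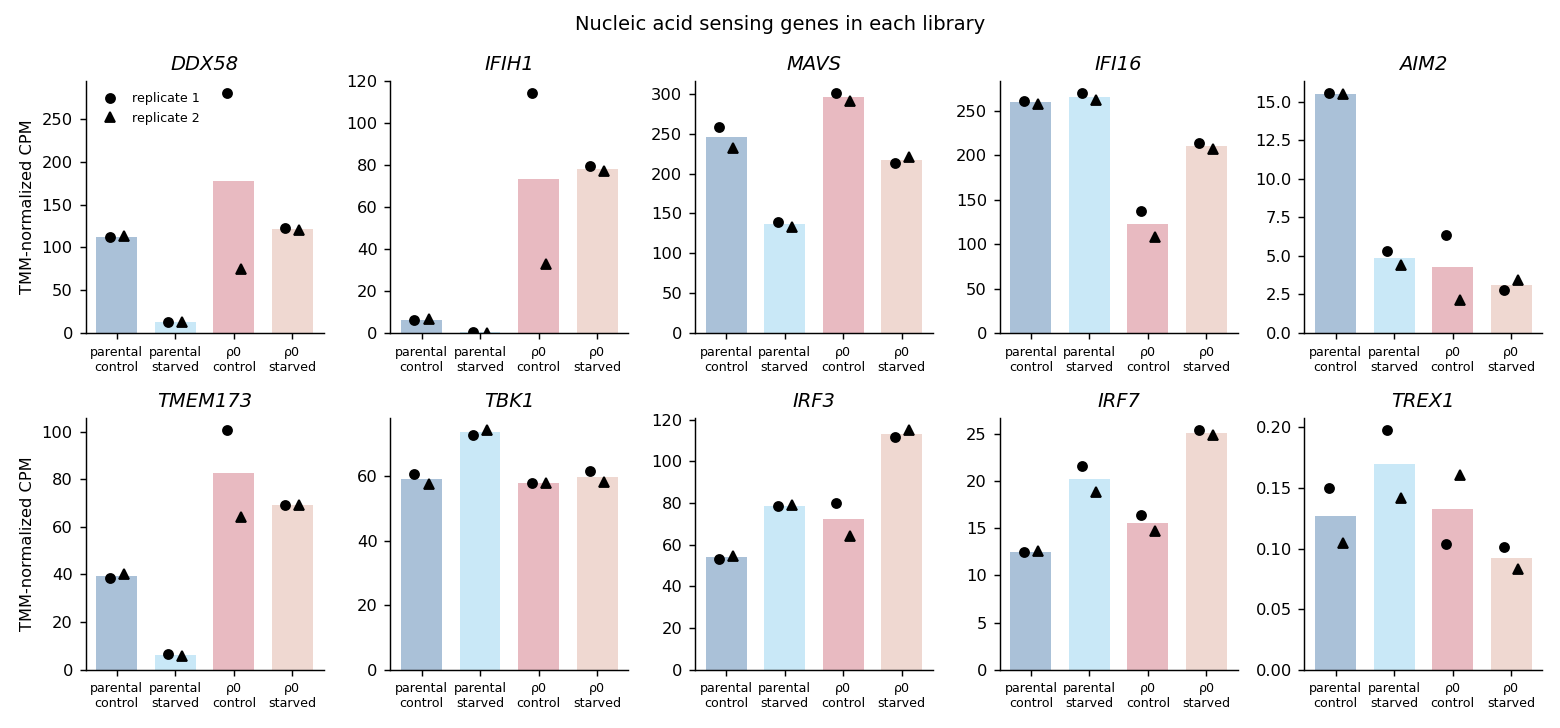
TMM-normalized CPM (vertical axis, linear and starting at 0) of the 10 genes in each group (horizontal axis), with bars for the mean of 2 libraries and points for replicate 1 (circle) and replicate 2 (triangle). The pairs lie furthest apart in the ρ0 control group, for DDX58 (280 and 74.4 CPM), IFIH1 (114 and 32.8 CPM), AIM2 (6.38 and 2.12 CPM) and TMEM173 (101 and 64.1 CPM), and the TREX1 points rest on 2 to 5 counts each.

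The first comparison asked how arginine starvation changed these genes in the parental line. The RNA sensors DDX58 and IFIH1, their adaptor MAVS, the DNA sensor AIM2 and the STING gene TMEM173 fell, TBK1, IRF3 and IRF7 rose by smaller amounts, and IFI16 did not pass the test. A change was called at an adjusted p under 0.05 in edgeR's quasi-likelihood test, with Benjamini-Hochberg adjustment over the 15262 genes tested. Of the 9 members tested, 3 were called higher against a background of 30.4% of all tested genes, and 5 were called lower against 35.5%. The median log2 fold change was -0.85 over the members and -0.07 over all genes, which upper quartile and total-count scaling moved to -0.19 and -0.23.

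DDX58 stood at 112 and 113 CPM in the parental control libraries and at 12.4 and 12.6 CPM in the starved ones. Its fall was 9.0-fold (log2 -3.17 ± 0.55 SE, adjusted p = 0.0015, edgeR). IFIH1 was already low in control cells, at 6.15 and 6.67 CPM, and the starved libraries held 10 and 5 counts, or 0.396 and 0.177 CPM. This was a 22.4-fold fall (log2 -4.49 ± 0.87, adjusted p = 0.0026, edgeR), which missed the threshold with limma-voom (adjusted p = 0.055). MAVS went from 259 and 232 CPM to 139 and 133 CPM, a 1.80-fold fall (log2 -0.85 ± 0.08, adjusted p = 9.1e-05, edgeR). For all 3 genes of the RNA branch, both starved libraries lay below both control libraries, as they did for 47.3% of all tested genes.

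AIM2 fell 3.19-fold, from 15.6 and 15.5 CPM to 5.35 and 4.39 CPM (log2 -1.67 ± 0.42, adjusted p = 0.0086, edgeR). Without parental starved replicate 2 the estimate was -1.54 and the call was lost, in a fit that called fewer of all tested genes as well. IFI16, its neighbour on chromosome 1, did not follow: it was at 261 and 257 CPM in control and 270 and 262 CPM in starved libraries (log2 0.04, 95% interval -0.23 to 0.30, adjusted p = 0.80, edgeR), and its estimate was -0.08 with upper quartile and -0.13 with total-count scaling. TMEM173 fell 6.47-fold, from 38.7 and 40.2 CPM to 6.50 and 5.71 CPM (log2 -2.69 ± 0.22, adjusted p = 3.9e-05, edgeR). The STING transcript therefore differed between the groups by far more than between replicates, and no alternative setting ended its call.

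The kinase and the transcription factors downstream of both branches did not share this fall. TBK1 rose 1.25-fold, from 60.5 and 57.7 CPM to 72.8 and 74.4 CPM (log2 0.32 ± 0.08, adjusted p = 0.0073, edgeR). That call was lost with scaling by total counts (log2 0.16, adjusted p = 0.11, edgeR), without parental control replicate 2 (0.28) and without parental starved replicate 2 (0.30). The fits without a library also called fewer of all tested genes. IRF3 rose 1.46-fold, from 53.2 and 54.8 CPM to 78.7 and 79.0 CPM (log2 0.55 ± 0.11, adjusted p = 0.003, edgeR). IRF7 was higher by 1.61-fold, with 12.4 and 12.6 CPM before and 21.5 and 18.8 CPM after starvation (log2 0.69 ± 0.12, adjusted p = 0.0013, edgeR). Both starved libraries lay above both control libraries for these 3 genes, as they did for 41.9% of all tested genes.

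The stretches upstream of DDX58, IFIH1 and AIM2 are shown because these genes fell together in the starved parental line, and because the same genes differed most between the ρ0 control libraries. They are the 250 bases before the annotated start in RefSeq on GRCh38.p14, read 5′ to 3′ on the gene's strand, where DDX58 is listed as RIGI. Both strands were searched for an interferon-response motif (GAAA, any 2 bases, GAAA), for a κB-like motif (GGGA, any base, TTTCC) and for the shorter interferon regulatory factor core (AA, any 2 bases, GAAA), which overlaps the first. Capitals mark matches to the first and second motif, and in DDX58 also to the core.
DDX58 (chr9:32526197-32526446, minus strand): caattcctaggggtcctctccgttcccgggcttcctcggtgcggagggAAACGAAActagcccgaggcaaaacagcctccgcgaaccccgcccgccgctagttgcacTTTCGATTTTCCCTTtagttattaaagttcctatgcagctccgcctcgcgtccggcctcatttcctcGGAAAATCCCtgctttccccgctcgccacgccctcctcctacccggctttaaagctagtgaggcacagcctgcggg
IFIH1 (chr2:162318685-162318934, minus strand): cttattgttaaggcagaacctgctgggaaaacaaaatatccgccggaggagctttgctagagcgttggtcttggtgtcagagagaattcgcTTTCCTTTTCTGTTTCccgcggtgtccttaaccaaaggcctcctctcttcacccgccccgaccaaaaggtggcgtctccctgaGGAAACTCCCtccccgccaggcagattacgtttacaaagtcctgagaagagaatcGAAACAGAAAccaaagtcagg
AIM2 (chr1:159076767-159077016, minus strand): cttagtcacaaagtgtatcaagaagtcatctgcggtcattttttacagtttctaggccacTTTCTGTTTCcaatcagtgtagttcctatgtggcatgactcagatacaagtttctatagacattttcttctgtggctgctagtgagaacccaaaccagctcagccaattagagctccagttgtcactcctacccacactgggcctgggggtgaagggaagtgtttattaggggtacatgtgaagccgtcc

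For the matches, plus strand means the strand as printed and minus strand its complement, whichever strand of the chromosome the gene is on. The IFIH1 stretch held 3 matches to the interferon-response motif, at -159 to -150 and -153 to -144 (these overlap, minus strand) and at -21 to -12 (plus strand), counted from -1 as the base before the start. AIM2 held 1 such match at -190 to -181 on the minus strand. DDX58 held none but had 3 matches to the shorter core, at -202 to -195 (plus strand), -143 to -136 and -136 to -129 (minus strand). IFIH1 held 4 matches to the core and AIM2 held 1. They lay within the interferon-response matches, except 1 of IFIH1 at -25 to -18 (plus strand), which began before the capitals. A κB-like match stood at -76 to -67 on the minus strand of both DDX58 and IFIH1. Of 35116 promoters of the same length, 3.02% held the interferon-response motif, 20.3% the core and 0.527% the κB-like motif. TBK1, TREX1 and MAVS held none of the 3 motifs, and the 2 promoters of IFI16 held the core only. No entries were found for TMEM173, IRF3 and IRF7. A match describes the letters and is not evidence that a factor bound there.

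The second comparison asked the same in ρ0 cells. Starvation raised IFI16, IRF3 and IRF7 and lowered MAVS, while DDX58, IFIH1, AIM2, TMEM173 and TBK1 did not pass the test. Of the 9 members tested, 3 were called higher against a background of 19.2% of all tested genes, and 1 was called lower against 22.1%. The median log2 fold change was 0.05 over the members and -0.02 over all genes.

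IFI16, which did not move in the parental line, rose 1.72-fold, from 137 and 108 CPM to 214 and 207 CPM (log2 0.78 ± 0.11, adjusted p = 0.0017, edgeR). IRF3 rose 1.57-fold, from 80.2 and 64.3 CPM to 112 and 115 CPM (log2 0.65 ± 0.11, adjusted p = 0.003, edgeR). IRF7 went from 16.4 and 14.7 CPM to 25.4 and 24.8 CPM, a 1.62-fold rise (log2 0.69 ± 0.11, adjusted p = 0.003, edgeR). Each of these 3 genes was higher in both starved libraries than in either control library, as were 32.9% of all tested genes. MAVS fell 1.36-fold, from 301 and 291 CPM to 214 and 221 CPM (log2 -0.44 ± 0.08, adjusted p = 0.0047, edgeR). Leaving out either starved library gave MAVS values of -0.40 (replicate 1 left out, adjusted p = 0.066) and -0.45 (replicate 2 left out, adjusted p = 0.05).

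Of the other 5 members, DDX58, IFIH1, AIM2 and TMEM173 had control libraries that lay further apart than the starved ones. DDX58 was at 280 CPM in ρ0 control replicate 1 and 74.4 CPM in replicate 2, with the starved libraries between them at 123 and 121 CPM. IFIH1 stood at 114 and 32.8 CPM in control and at 79.5 and 77.2 CPM after starvation. AIM2 was at 6.38 and 2.12 CPM in control, on either side of 2.77 and 3.44 CPM in the starved libraries. The control libraries thus enclosed the starved ones for all 3 genes, and also for TMEM173 (101 and 64.1 CPM in control, 69.2 and 69.3 CPM starved). The estimates were -0.54 (95% interval -1.68 to 0.60) for DDX58, 0.09 (-1.01 to 1.19) for IFIH1, -0.45 (-1.49 to 0.59) for AIM2 and -0.25 (-0.69 to 0.19) for TMEM173, all log2. TBK1 was at 57.7 and 57.8 CPM in control and at 61.7 and 58.0 CPM in starved libraries (log2 0.05, -0.13 to 0.23).

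The direction of 4 members in ρ0 cells depended on which control library was used. Without ρ0 control replicate 1, DDX58 was higher after starvation by 0.71 on the log2 scale, IFIH1 by 1.26, AIM2 by 0.54 and TMEM173 by 0.11. Without replicate 2, the same genes stood at -1.19, -0.53, -1.04 and -0.53. The count of members called was 7 without replicate 1 and 8 without replicate 2, in place of 4, while the share of all tested genes called was 62.8% and 62.4% in place of 41.3%. In these fits the remaining control library was assumed to vary like the libraries of the other groups. A starvation response of DDX58, IFIH1, AIM2 and TMEM173 in ρ0 cells was accordingly not given a direction here.

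The difference between the ρ0 control libraries was not spread evenly over the pathway. ρ0 control replicate 1 exceeded replicate 2 by more than 2-fold for DDX58 (3.77-fold), IFIH1 (3.49-fold) and AIM2 (3.01-fold), or 3 of the 9 members, where 6.28% of all tested genes did so. TMEM173 followed at 1.57-fold, and the other 5 members lay between 0.999-fold and 1.27-fold. Among the related lists, 14 of 22 direct interferon target genes and 9 of 16 other RNA sensors and editors passed 2-fold, with IFIT1 at 8.31-fold, CXCL10 at 6.69-fold and OAS1 at 5.94-fold. Of the DNA sensors, receptors and nucleases 0 of 18 did, and of the adaptors, kinases and ubiquitin ligases 0 of 27. At the 6.28% of all tested genes few would pass in lists of this size, so these lists were not set apart from that share. No tested member or other listed gene was more than 2-fold higher in replicate 2, where 4.4% of all tested genes were. None of the 9 members differed by 2-fold between replicates in the parental control or ρ0 starved group. In the parental starved pair, IFIH1 alone passed 2-fold, on 10 and 5 counts. Some markers of other cells moved with this difference: the 7 leukocyte markers other than CD68 summed to 10.2 CPM in replicate 1 and 5.31 CPM in replicate 2, with CD3E and MS4A1 at 0, and the 4 stromal markers to 31 and 14.2 CPM. CSF1R, LYZ, CD14, COL1A1, PDGFRB and PECAM1 carried these sums, whereas PTPRC, the general leukocyte marker, was at 0.243 and 0.386 CPM, ITGAM at 0.243 and 0.804 CPM and VWF at 0.278 and 0.707 CPM, all higher in replicate 2. Their part in the difference was not tested.

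**Figure D2:**
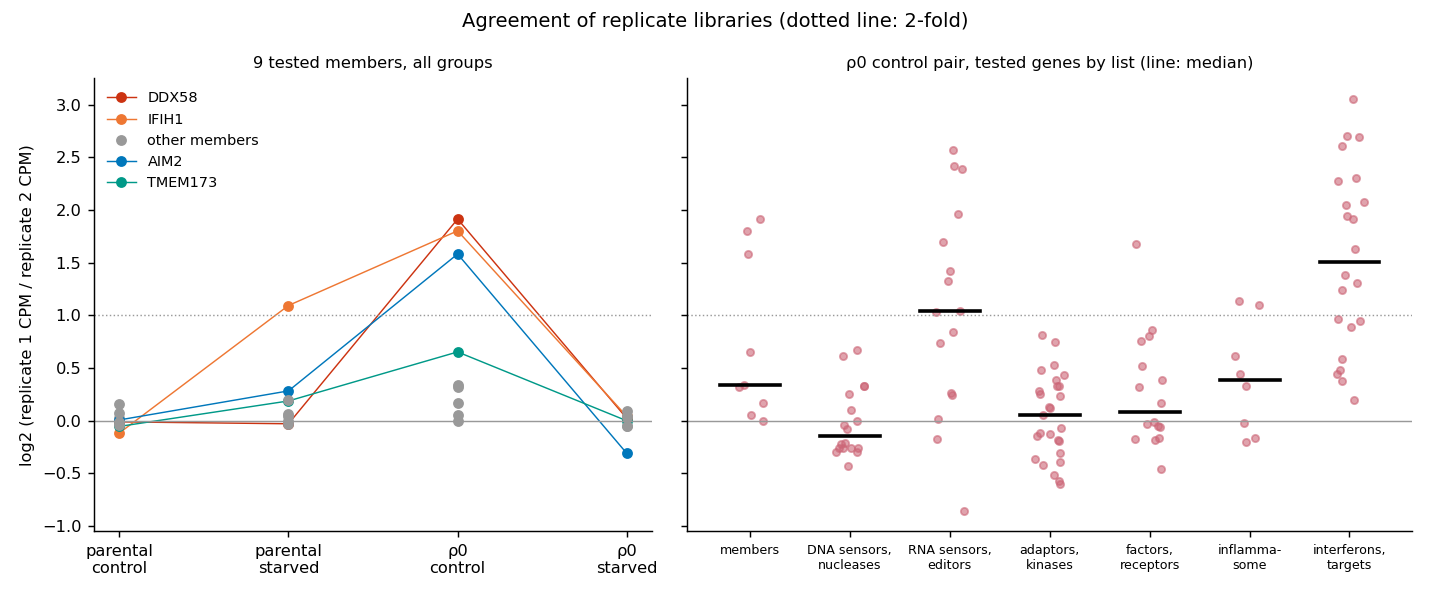
Log2 ratio of replicate 1 to replicate 2 (vertical axis) for the 9 tested members in the 4 groups (left) and, in the ρ0 control pair, for the tested genes of each list with the list's median as a bar (right); the dotted line marks 2-fold. DDX58, IFIH1 and AIM2 lie above the dotted line in the ρ0 control pair, as do 14 of the 22 direct interferon target genes tested.

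The difference between the responses of the lines was tested as an interaction, ρ0 minus parental. It was positive for TMEM173, DDX58, IFIH1, IFI16 and MAVS, and no member was called negative. Thus 5 of the 9 members were called higher in ρ0 cells against a background of 21.6% of all tested genes, and 0 were called lower against 18.8%. The median was 0.75 on the log2 scale over the members and 0.02 over all genes. Upper quartile scaling moved the median of all genes in this comparison to 0.115. Without ρ0 control replicate 1, 8 members were called, and without parental control replicate 1 or any of the 4 starved libraries only 2 or 3. The share of all tested genes called moved likewise, from 40.4% to 65.9% without ρ0 control replicate 1 and to 22.5% to 25.4% in the other fits named.

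TMEM173 differed by 2.44 ± 0.28 on the log2 scale (adjusted p = 0.001, edgeR), with a fall in the parental line and no call in ρ0 cells. With either ρ0 control library left out the difference was 2.81 or 2.13, and it stayed below an adjusted p of 0.05 in all alternatives. IFIH1 differed by 4.58 ± 1.02 (adjusted p = 0.011, edgeR) and DDX58 by 2.63 ± 0.72 (adjusted p = 0.024, edgeR). Without ρ0 control replicate 1 these were 5.75 and 3.88, and without replicate 2 they were 3.92 and 1.94, so the sign did not rest on either library. The DDX58 call was lost in each of the 6 fits that left out a library of another group (adjusted p = 0.068 to 0.082), and that of IFIH1 without parental starved replicate 2 (4.09, adjusted p = 0.058) and with limma-voom (4.87, adjusted p = 0.069).

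IFI16 differed by 0.75 ± 0.16 (adjusted p = 0.0095, edgeR), as it rose in ρ0 cells and not in parental cells. Without ρ0 starved replicate 1 the adjusted p was 0.055. MAVS fell in both lines and less in ρ0 cells, by a difference of 0.41 ± 0.12 (adjusted p = 0.028, edgeR), which lost its call in 5 of the 8 fits that left out 1 library, namely parental control replicate 1 or any starved library (0.33 to 0.44, adjusted p = 0.085 to 0.14). For IRF7 the responses were nearly equal (difference 0.00, 95% interval -0.39 to 0.39), for IRF3 the difference was 0.10 (-0.25 to 0.46) and for TBK1 -0.26 (-0.52 to -0.01, adjusted p = 0.087, edgeR). AIM2 differed by 1.22 (-0.20 to 2.64, adjusted p = 0.15, edgeR), and by 2.22 or 0.60 without ρ0 control replicate 1 or 2, both past the threshold.

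**Figure D3:**
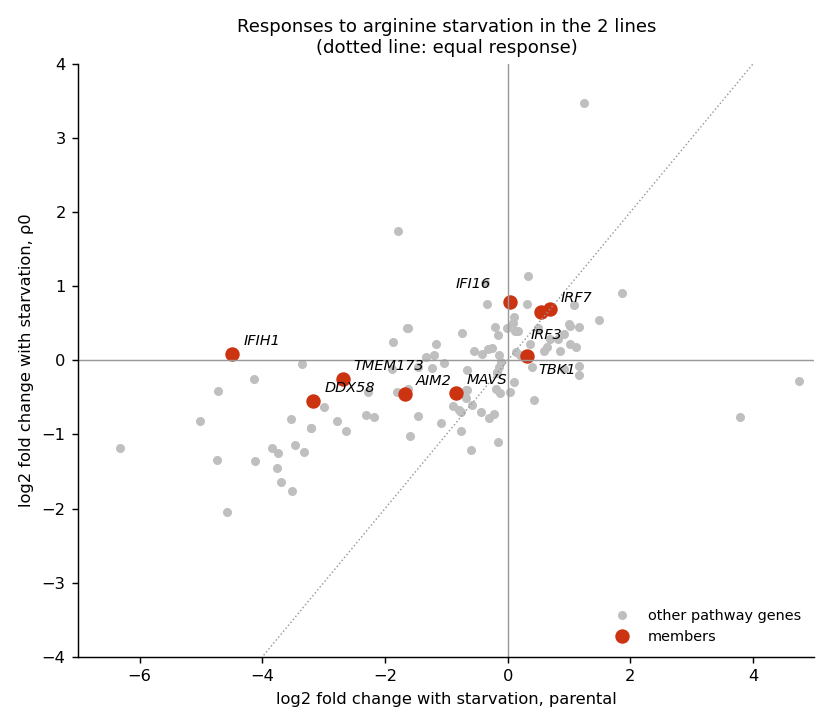
Log2 fold change with starvation in the parental line (horizontal axis) against that in ρ0 cells (vertical axis) for the 9 tested members (red) and 107 other pathway genes (grey); the dotted line marks equal responses. IRF3 and IRF7 lie near the dotted line, whereas IFIH1, DDX58 and TMEM173 lie far to the left (parental -4.49, -3.17 and -2.69) and between -0.54 and 0.09 in ρ0 cells.

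In full medium the comparison of the lines asked what differed between the ρ0 clone and the parental line. Depletion of mitochondrial DNA, clone and culture additions cannot be told apart in it. The comparison shares its libraries with those above, so the counts are not independent of each other. IFIH1, TMEM173, IRF3, IRF7 and MAVS were higher in ρ0 cells, AIM2 and IFI16 were lower, and DDX58 and TBK1 did not pass the test. Of the 9 members, 5 were called higher against a background of 30.5% and 2 lower against 31.8%. The median log2 difference was 0.31 over the members and -0.01 over all genes. Without parental control replicate 2, 4 members in place of 7 were called, and 48.3% of all tested genes in place of 62.3%.

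IFIH1 was 11.5-fold higher in ρ0 control cells, at 73.6 ± 57.7 CPM (SD, n = 2) against 6.41 ± 0.37 CPM in parental control cells (log2 3.52 ± 0.54 SE, adjusted p = 0.0009, edgeR). The value stayed positive, at 2.36 or 4.22, without ρ0 control replicate 1 or 2. DDX58, in contrast, had 1 ρ0 library above and 1 below the parental pair, with 178 ± 146 against 112 ± 0.667 CPM (log2 0.66, 95% interval -0.48 to 1.80, adjusted p = 0.27, edgeR). It was at -0.60 without replicate 1 and at 1.37 without replicate 2. The RNA sensors therefore differed in this respect, with IFIH1 higher in ρ0 cells whichever library was used. MAVS was 1.2-fold higher, at 296 ± 7.36 against 246 ± 18.7 CPM (log2 0.27 ± 0.08, adjusted p = 0.023, edgeR), a call that was lost with total-count scaling (0.17, adjusted p = 0.11), without parental control replicate 2 (0.19, adjusted p = 0.16) without either parental starved library (0.27, adjusted p = 0.055) and with only the groups compared in the fit (adjusted p = 0.14).

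TMEM173 was 2.09-fold higher in ρ0 control cells, with 82.5 ± 25.9 against 39.4 ± 1.07 CPM (log2 1.06 ± 0.19, adjusted p = 0.0021, edgeR), and the value was 0.70 or 1.41 without ρ0 control replicate 1 or 2. IFI16 was 2.12-fold lower, at 122 ± 20.5 against 259 ± 2.69 CPM (log2 -1.08 ± 0.11, adjusted p = 0.00014, edgeR). AIM2 was 3.67-fold lower, at 4.25 ± 3.01 against 15.5 ± 0.0484 CPM (log2 -1.87 ± 0.42, adjusted p = 0.0057, edgeR), and at -2.87 or -1.23 without ρ0 control replicate 1 or 2. Both DNA-binding sensors thus went the opposite way to TMEM173, and their ρ0 libraries lay below the parental ones, as did those of 39.9% of all tested genes. IRF3 was 1.34-fold higher (log2 0.42 ± 0.11, adjusted p = 0.011, edgeR) and IRF7 1.24-fold higher (0.31 ± 0.12, adjusted p = 0.046, edgeR). The IRF7 call was lost in 15 of 17 alternatives. That of IRF3 was lost without parental control replicate 1 (0.40, adjusted p = 0.071) or replicate 2 (0.44, adjusted p = 0.052) and with only the groups compared in the fit (0.42, adjusted p = 0.072), and its value was 0.25 without ρ0 control replicate 1. TBK1 was at 57.8 ± 0.0446 CPM in ρ0 and 59.1 ± 1.99 CPM in parental control cells (log2 -0.03, 95% interval -0.21 to 0.14).

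Between the starved lines, IFIH1, TMEM173, DDX58, MAVS, IRF3 and IRF7 were higher in starved ρ0 than in starved parental cells, IFI16 and TBK1 were lower, and AIM2 did not pass the test. The log2 difference was larger than in full medium for IFIH1, TMEM173, DDX58 and MAVS, and smaller in size for IFI16, each of which was called in the interaction. In numbers, 6 of 9 were called higher against a background of 32.9% and 2 lower against 33.5%, with a median log2 difference of 0.52 over the members and -0.01 over all genes.

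IFIH1 was at 78.3 ± 1.56 CPM (SD, n = 2) in starved ρ0 cells and at 0.287 ± 0.155 CPM in starved parental cells, a 274.5-fold difference (log2 8.10 ± 0.79 SE, adjusted p = 8.2e-05, edgeR) that rests on 15 counts in the parental pair. TMEM173 was 11.4-fold higher, at 69.3 ± 0.0556 against 6.10 ± 0.557 CPM (log2 3.51 ± 0.22, adjusted p = 1e-05, edgeR). DDX58 was 9.74-fold higher, with 122 ± 1.3 against 12.5 ± 0.187 CPM (log2 3.28 ± 0.55, adjusted p = 0.0012, edgeR). For these 3 genes the starved groups were far apart compared with their replicates, and none of their calls changed under any alternative. MAVS was 1.60-fold higher (0.67 ± 0.08, adjusted p = 0.00026, edgeR), IRF3 1.44-fold (0.52 ± 0.11, adjusted p = 0.0036, edgeR) and IRF7 1.25-fold (0.32 ± 0.11, adjusted p = 0.04, edgeR). IFI16 was 1.26-fold lower (-0.34 ± 0.11, adjusted p = 0.03, edgeR) and TBK1 1.23-fold lower (-0.30 ± 0.08, adjusted p = 0.0097, edgeR). The calls of IRF7, IFI16 and TBK1 were lost in each fit without 1 of the 4 starved libraries (adjusted p = 0.053 to 0.25), which left 5 members called in place of 8 and 51.8% to 52.9% of all tested genes in place of 66.5%, and those of IRF7 and IFI16 also without either parental control library (adjusted p = 0.056 to 0.068). The IFI16 call was further lost under an alternative setting other than a left-out library. AIM2 was at 3.10 ± 0.471 against 4.87 ± 0.672 CPM (log2 -0.65, 95% interval -1.69 to 0.39, adjusted p = 0.23, edgeR).

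**Figure D4:**
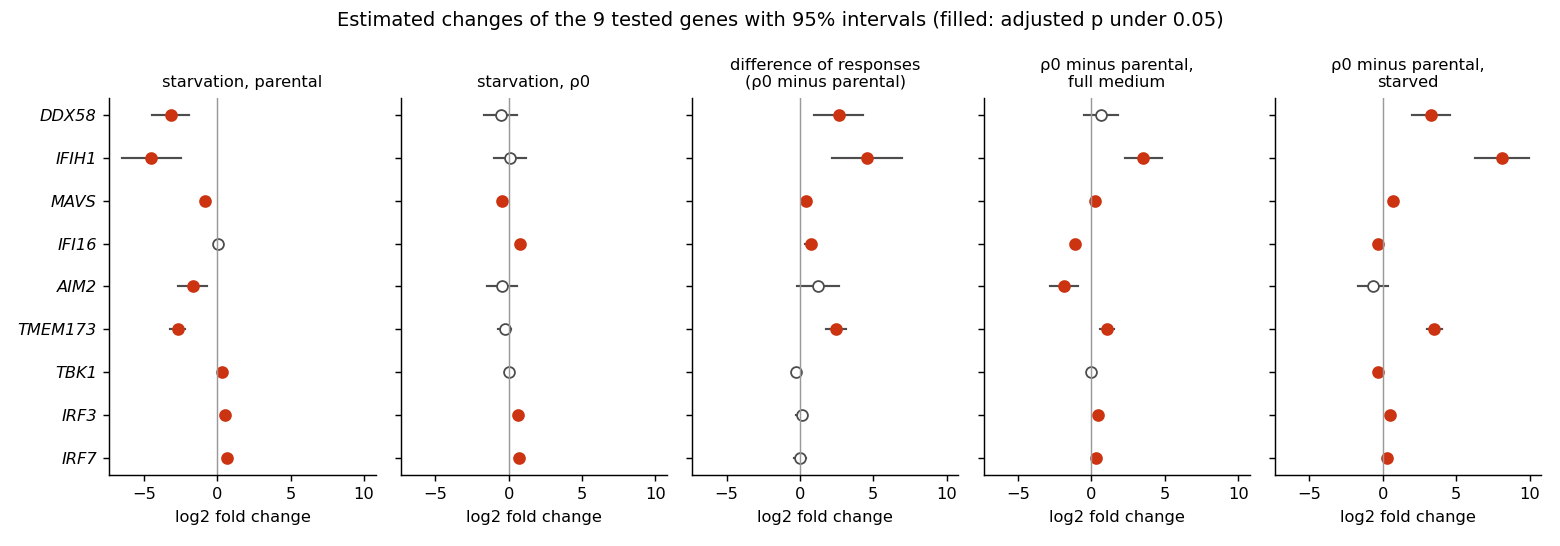
Log2 fold changes (horizontal axis) with 95% intervals for the 9 tested members in the 5 comparisons, with filled points for an adjusted p under 0.05 in edgeR's quasi-likelihood test. The widest intervals belong to IFIH1, DDX58 and AIM2, and the IFIH1 point reaches 8.10 between the starved lines.

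TREX1, the exonuclease that clears cytosolic DNA, had 2 to 5 counts in each of the 8 libraries and was not tested. In GENCODE release 29, all 1515 of its exonic bases also belong to exons of ATRIP on the same strand. ATRIP had 159 to 361 counts per library. How the authors assigned reads from shared exons is not given in the sources used here, and the level of TREX1 is uncertain for this reason. IRF3 shares 19.3% of its exonic bases with BCL2L12 on the opposite strand and TBK1 shares 14.7% with an antisense gene, and whether counting used strand is not stated. Between parental control and starved libraries BCL2L12 went from 984 and 1004 counts to 432 and 441 counts, while IRF3 rose. The other 7 members share no exonic base with another annotated gene.

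The partners of the members were read from a list of 119 other pathway genes, of which 107 were tested. In the parental line 23 of them were called higher and 49 lower with starvation, against 30.4% and 35.5% of all tested genes, and in ρ0 cells 22 and 24, against 19.2% and 22.1%. The difference between the responses was called positive for 37 and negative for 18 (21.6% and 18.8% of all genes). In ρ0 relative to parental cells 46 were higher and 30 lower in full medium (30.5% and 31.8%), and 63 were higher and 25 lower when both were starved (32.9% and 33.5%). These genes were grouped by role, and those named were chosen by the rule given with the processing.

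MB21D1, the gene of cGAS directly upstream of TMEM173, moved opposite to it in the parental line. It was at 35.5 and 34.2 CPM in control and 127 CPM in both starved parental libraries, a 3.65-fold rise (log2 1.87 ± 0.11, adjusted p = 1.3e-05, edgeR). In ρ0 cells it rose 1.88-fold, from 40.1 and 49.5 CPM to 85.0 and 83.4 CPM (0.91 ± 0.11, adjusted p = 0.00071, edgeR). The enzyme's transcript thus rose in both lines, less in ρ0 cells (difference -0.96 ± 0.15, adjusted p = 0.0029, edgeR), and TMEM173 fell in the parental line. DNASE2, a lysosomal DNA nuclease, fell in the parental line (log2 -1.65) and rose in ρ0 cells (0.44, adjusted p = 0.018, edgeR), and SAMHD1, which hydrolyses deoxynucleotides, fell in ρ0 cells (-1.10). Over the list of DNA sensors, receptors and nucleases, 8 of 18 were called higher and 5 lower in starved parental cells (all tested genes: 30.4% and 35.5%). In ρ0 cells 5 were called higher and 7 lower (all tested genes: 19.2% and 22.1%). ZBP1 had 8 counts in ρ0 control replicate 1 and 0 in the other 7 libraries.

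Among other RNA sensors and editors, 4 of 16 rose and 9 fell in the starved parental line (all tested genes: 30.4% and 35.5%). The falls of OAS1 (log2 -6.32) and OAS2 (-5.01), which make the activator of RNase L, were the largest with at least 1 CPM on average. The starved parental libraries held 3 and 7 counts of OAS1 and 1 and 4 counts of OAS2. In starved ρ0 cells 2 rose, 4 fell and 10 were not called (19.2% and 22.1% of all tested genes rose and fell). DHX58 (LGP2), the regulator of DDX58 and IFIH1, had 5 and 6 counts in parental control, 1 and 2 in parental starved, 729 and 242 in ρ0 control and 250 and 188 in ρ0 starved libraries. Like IFIH1 it was higher in ρ0 cells in full medium (90.9-fold, log2 6.51 ± 0.71, adjusted p = 0.00017, edgeR), and replicate 1 was again above replicate 2.

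Of the adaptors, kinases and ubiquitin ligases, 5 of 27 rose and 11 fell in the starved parental line (all tested genes: 30.4% and 35.5%). In ρ0 cells 9 rose and 4 fell (all tested genes: 19.2% and 22.1%). IKBKE, the kinase most closely related to TBK1, fell 17.6-fold in the parental line, from 27.2 and 31.2 CPM to 1.47 and 1.84 CPM (log2 -4.13 ± 0.31, adjusted p = 2.9e-05, edgeR). TBK1 rose there, so the related kinases moved in opposite directions. In ρ0 cells IKBKE was at 42.5 and 24.2 CPM in control and 29.2 and 26.8 CPM in starved libraries (log2 -0.25 ± 0.24, adjusted p = 0.45, edgeR), and the responses differed by 3.88 ± 0.39 (adjusted p = 0.00062, edgeR). TRAF3, a ubiquitin ligase recruited by MAVS, was not called with starvation in either line (-0.14 and -0.10).

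Of the transcription factors and interferon receptors, 5 of 16 rose and 6 fell in starved parental cells (all tested genes: 30.4% and 35.5%). In ρ0 cells 5 rose and 3 fell (all tested genes: 19.2% and 22.1%). STAT2, which acts after interferon binds its receptor, fell in the parental line (-1.17 ± 0.24), stood at 0.22 ± 0.23 in ρ0 cells, and the responses differed by 1.39 ± 0.33 (adjusted p = 0.014, edgeR). Its ρ0 control libraries stood at 86.4 and 47.7 CPM, on either side of 79.5 and 76.4 CPM in the starved ones. Its response in ρ0 cells was therefore not given a direction. IRF9, which binds STAT2, was listed at 0 in all 8 libraries. In GENCODE release 29, 48.4% of its exonic bases belong to another annotated gene on the same strand, and its level cannot be read from this table.

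Interferon transcripts themselves were scarce. IFNB1 and IFNA1 had 0 counts in every library, which allows a level of up to 3 counts over the libraries of a group, and IFNL1 had 19 and 1 counts in the ρ0 control libraries, 7 and 5 in the ρ0 starved libraries and 0 or 1 in the parental libraries. None of the 7 listed interferon genes was tested. Of the 22 direct target genes tested, 1 rose and 11 fell in starved parental cells (all tested genes: 30.4% and 35.5%). In starved ρ0 cells 0 rose and 3 fell (19.2% and 22.1%). In full medium 14 were higher and 3 lower in ρ0 than in parental cells (30.5% and 31.8%). ISG15 was at 32.0 and 31.6 CPM in parental control, 55.6 and 56.6 CPM in parental starved, 413 and 108 CPM in ρ0 control and 316 and 317 CPM in ρ0 starved libraries. IFIT1 fell in the parental line from 11 and 12.5 CPM to 1.15 and 0.673 CPM (log2 -3.70 ± 1.11, adjusted p = 0.02, edgeR), and stood at 276 and 33.2 CPM in ρ0 control and 49.7 and 49.0 CPM in ρ0 starved libraries. The ρ0 starved libraries lay between the control pair for both genes, as they did for DDX58 and IFIH1. MX1 was 29-fold higher in ρ0 cells in full medium (log2 4.86 ± 0.35, adjusted p = 2.5e-05, edgeR). CCL5 had 1 count in each parental control library and 97 and 44 in the ρ0 control libraries, a ratio of 73.1 with a counting interval of 19.9 to 610. CXCL10 fell in the parental line from 70 and 60 counts to 1 and 3 counts.

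In the inflammasome list, to which AIM2 signals, 0 of 8 rose and 7 fell in starved parental cells (all tested genes: 30.4% and 35.5%). In ρ0 cells 1 rose and 3 fell (all tested genes: 19.2% and 22.1%). CASP1, the protease that AIM2 activates, fell in both lines, from 159 and 127 counts to 5 and 13 counts in parental cells (log2 -3.76 ± 0.47, adjusted p = 0.00031, edgeR) and from 70 and 34 counts to 17 and 17 counts in ρ0 cells (-1.46 ± 0.45, adjusted p = 0.037, edgeR). PYCARD (ASC), which links the sensor to the protease, had 0 counts in both parental control libraries and 250 and 126 counts in the ρ0 control libraries, at least 130-fold higher against a floor of 3 counts over the group. IL1B, the cytokine cut by that protease, was 88.7-fold lower in ρ0 control cells (log2 -6.47 ± 0.10, adjusted p = 6.5e-08, edgeR).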

How the data were processed

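The authors sequenced RNA extracted with Trizol from the 4 groups and deposited 1 table with the raw counts of reads for each gene symbol, not normalized. The submitters' processing notes name Bowtie, Partek and hg19, and the annotation and strand setting are not given in the sources used here. No coordinates of hg19 were used. Precision rests on 25259503 to 31022155 counts per library and 2 libraries per group, and counting intervals and floors cover counting error only.

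Counts were tested with edgeR 4.0.16 in R 4.3.3 (TMM, filterByExpr, quasi-likelihood test), using 1 fit to all 8 libraries with 1 mean per group, which kept 15262 of 23393 genes with 4 residual and 3.40 prior degrees of freedom. The contrasts were starvation in each line, their difference, and ρ0 minus parental in each medium. The SE of a log2 fold change was taken as its size over the root of the F statistic. Alternatives were other scalings (DESeq2 size factors, upper quartile, total counts), other filters, DESeq2 1.42.0, limma-voom (limma 3.58.1), the replicate number as a block, the compared groups alone, an added fold threshold, and each library left out. A gene at 0 in a group was given a bound against a floor of 3 counts over the group, and 1 to 3 counts gave a ratio with an exact 95% interval.

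All 10 members were named. Of the other lists, at most the 3 largest changes per list and comparison with an adjusted p under 0.05 and at least 1 CPM were named, plus MB21D1, DHX58, ZBP1, IKBKE, TRAF3, STAT2, IRF9, PYCARD, CASP1, IFNB1, IFNL1, CCL5, CXCL10, IFIT1, ISG15 and MX1. The values of 1 further gene always named are not reported here. IFNA1 and the genes overlapping members were added after their values were seen. The members and lists were chosen with earlier results of these data known. Promoters came from RefSeq (GRCh38.p14), matched for 7 of the 10 members, and lengths and exon overlaps from GENCODE release 29, both on a build other than the authors'.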

Additional observations from a re-analysis of the deposited data

Results flagged for a closer look

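For 5 of the sensing genes the response to arginine starvation differed between ρ0 and parental cells by the interaction test of edgeR's quasi-likelihood fit, and each was flagged for that difference. On the log2 scale, ρ0 minus parental, it was 2.44 for TMEM173 (adjusted p = 0.001), 4.58 for IFIH1 (adjusted p = 0.011), 2.63 for DDX58 (adjusted p = 0.024), 0.75 for IFI16 (adjusted p = 0.0095) and 0.41 for MAVS (adjusted p = 0.028). Those of IFIH1 and DDX58 lie in genes that differed over 2-fold between the ρ0 control libraries.

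Among the partners named in the text, the responses differed in the same way for IKBKE (3.88, adjusted p = 0.00062, edgeR), STAT2 (1.39, adjusted p = 0.014), CASP1 (2.30, adjusted p = 0.032) CXCL10 (4.32, adjusted p = 0.04), DNASE2 (2.08, adjusted p = 0.00026), OAS1 (5.14, adjusted p = 0.018), OAS2 (4.19, adjusted p = 0.045) and IL1B (3.54, adjusted p = 2.1e-05), and in the opposite direction for MB21D1 (-0.96, adjusted p = 0.0029) and SAMHD1 (-0.94, adjusted p = 0.023). The CXCL10 value rests on 1 and 3 counts in the starved parental libraries. Those of OAS1, OAS2 and CASP1 rest on 3 and 7, 1 and 4, and 5 and 13 counts there. Between the ρ0 control libraries, replicate 1 exceeded replicate 2 by 6.69-fold for CXCL10, 5.94-fold for OAS1, 3.91-fold for OAS2 and 2.22-fold for CASP1. For STAT2 it did so by 1.81-fold and for IKBKE by 1.75-fold. With 2 libraries per group, no group was large enough to look for single outlying samples.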

How the results depend on the processing

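Over the 45 member results, 660 of the values under alternatives kept direction and side of the threshold, 61 lost a call, 13 gained one and 17 changed sign. With a log2 threshold of 1 added, the members called (other pathway genes in brackets) were 4 (45) for starvation in the parental line, 0 (11) in ρ0 cells, 3 (31) for the difference, and 4 (43) and 3 (55) between the lines in full medium and starved. With only the groups compared in the fit, 4 members were called in full medium, and 48.3% of all tested genes in place of 62.3%. For starvation in the parental line such a fit, which lacks the wide ρ0 control pair, called 83% of all tested genes in place of 65.9%. For starvation in ρ0 cells, where that pair is included, it called 22.1% in place of 41.3%. With 1 library left out, the counts ranged from 3 to 8 (23 to 87) for starvation in ρ0 cells, 2 to 8 (25 to 86) for the difference, 4 to 8 members in full medium and 5 to 9 starved. Leaving out a ρ0 control library also removes the widest pair from the estimate of the spread.

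Signs changed for IFI16 in the parental line (-0.0838 with upper quartile and -0.126 with total-count scaling), TBK1 in ρ0 cells (-0.0256 with total counts) and the IRF7 difference (-0.0021 with DESeq2 size factors, -0.00137 with DESeq2). With 1 library left out, starvation in ρ0 cells ranged from -0.528 to 0.112 for TMEM173, -1.04 to 0.536 for AIM2, -1.19 to 0.711 for DDX58 and -0.533 to 1.26 for IFIH1. The differences ranged from -0.0732 to 0.275 for IRF3 and -0.102 to 0.106 for IRF7, and the lines in full medium from -0.0719 to 0.0197 for TBK1 and -0.595 to 1.37 for DDX58. The cause was not tested. The replicate number did not pair the libraries (correlations of deviations between groups -0.053 to 0.0386). As a block it called 8, 4, 5, 6 and 8 members in the order above, and ended only the IRF7 call in full medium (adjusted p = 0.055, edgeR). At 2 to 5 counts per library, TREX1 could not be compared at this depth.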
